A study of Mus musculus with 6 samples.

Results

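RNA levels of 34 mouse genes of cholesterol and fatty acid synthesis were examined, out of 54309 genes quantified in the left sciatic nerve, in its distal part. The genes were taken by symbol: 19 of the cholesterol pathway and its control, 13 of fatty acid synthesis and its control, and 2 that build the galactolipids of myelin, Ugt8a and Fa2h. All 34 were found, with 191 of the 140789 transcripts in the deposited tables, and all 34 passed the filter on low counts. RNA sequencing of poly-A RNA was done on 3 libraries from female and 3 from male C57BL/6 mice of 6 to 8 weeks, each library pooled from 2 animals, 24 h after surgery on the nerve. The surgery is described in conflicting ways: the treatment label of all 6 libraries reads axotomy, the cutting of the nerve, while the written procedure tells of a nerve that was exposed and left uncut (sham). Both sexes carry the same label and procedure, so sex is the only labelled difference, and no nerve of an unoperated mouse was analysed here.

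Schwann cells wrap the axons of the sciatic nerve in myelin, a membrane very rich in cholesterol, in galactosylceramide and in long-chain fatty acids, and they make most of this lipid themselves. Cholesterol is built from acetyl-CoA through mevalonate, the isoprenoid farnesyl diphosphate, squalene and a row of sterols. SREBP-2, the product of Srebf2, switches these enzymes on when sterol is short, and SREBP-1, from Srebf1, acts mainly on fatty acid synthesis. Fat cells, which lie in and around the nerve sheath, also make fatty acids, with Scd1 and Thrsp among their characteristic genes.

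Promoter sequences are shown for 4 members, since the genes described here include targets of 1 class of transcription factor. Whether these sequences have a part in the levels that varied together over the libraries was not tested. RefSeq promoters on GRCm38.p6, running from 250 bases before the start of the transcript to 50 after it, were matched by symbol for 26 of the 34 genes. Capitals mark a sterol regulatory element (TCACNCCAC), a CCAAT box (CCAAT) or a GC box (GGGCGG), searched on both strands, so that ATTGG and CCGCCC are the boxes read from the other strand. None of the 3 patterns lies within another, but matches can overlap, as in GGGCGGGCGG of Ugt8a or CCAATTGG of Fasn. The Hmgcs1 promoter lies at chr13:119690101-119690400 on the plus strand, Insig1 at chr5:28071162-28071461 on the plus strand, Fasn at chr11:120824498-120824797 on the minus strand and Ugt8a at chr3:125938603-125938902 on the minus strand.
Hmgcs1: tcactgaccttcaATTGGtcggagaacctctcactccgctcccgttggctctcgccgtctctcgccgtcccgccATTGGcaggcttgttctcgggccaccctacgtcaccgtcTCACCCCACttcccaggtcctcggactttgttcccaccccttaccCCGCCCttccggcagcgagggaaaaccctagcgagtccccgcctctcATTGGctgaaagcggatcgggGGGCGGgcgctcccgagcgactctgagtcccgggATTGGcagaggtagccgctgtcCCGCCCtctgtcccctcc
Insig1: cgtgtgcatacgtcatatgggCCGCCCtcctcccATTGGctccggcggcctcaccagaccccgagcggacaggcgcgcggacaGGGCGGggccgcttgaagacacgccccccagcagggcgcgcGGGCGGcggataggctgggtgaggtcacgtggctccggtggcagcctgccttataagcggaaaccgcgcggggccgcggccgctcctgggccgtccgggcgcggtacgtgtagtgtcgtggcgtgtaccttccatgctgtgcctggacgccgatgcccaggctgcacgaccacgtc
Fasn: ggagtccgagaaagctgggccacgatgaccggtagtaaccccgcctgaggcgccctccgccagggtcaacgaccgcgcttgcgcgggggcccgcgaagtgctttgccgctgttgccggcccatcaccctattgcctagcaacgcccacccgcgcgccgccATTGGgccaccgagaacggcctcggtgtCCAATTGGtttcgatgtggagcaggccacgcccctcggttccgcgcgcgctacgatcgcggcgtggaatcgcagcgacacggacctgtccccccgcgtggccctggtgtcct
Ugt8a: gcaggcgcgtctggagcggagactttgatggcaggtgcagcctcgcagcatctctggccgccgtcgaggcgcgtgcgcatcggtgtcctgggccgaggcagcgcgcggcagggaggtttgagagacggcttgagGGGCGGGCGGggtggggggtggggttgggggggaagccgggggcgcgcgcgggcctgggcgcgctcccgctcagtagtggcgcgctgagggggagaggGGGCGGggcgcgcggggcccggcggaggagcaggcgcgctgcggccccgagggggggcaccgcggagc
Hmgcs1 was the single member of 26 whose window held the sterol element, 137 bases before the start (3.85% of member genes, against 1.40% of the 13210 genes with a promoter that passed the low-count filter). A CCAAT box lay in the windows of 21 of 26 members (80.8%, against 42.5% of those genes), and a GC box in 20 of 26 (76.9%, against 61.9%). Among the windows printed, those of Hmgcs1, Insig1 and Fasn held CCAAT boxes, whereas that of Ugt8a held GC boxes alone. A match of letters is a description of the window, and the lack of one says only that the letters are not in it.

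The libraries held 55272138 to 77610593 estimated reads. Myelinating Schwann cell markers were abundant in all 6 libraries: 12 markers summed to 11492 to 17782 TPM in females and 23457 to 29704 TPM in males. Skeletal muscle markers set 2 libraries apart, female 2 with a sum of 1402 TPM over 10 markers and male 1 with 699 TPM, while the other 4 had 9.79 to 26.7 TPM. Female 2 also had the highest adipocyte sum, 1274 TPM over 11 markers, against 382 and 532 TPM in the other females and 486 to 788 TPM in males. The brown fat markers Ucp1 and Cidea were at no more than 0.207 TPM. Female 1 had keratinocyte markers at 25.04 TPM in sum, with Krt5 at 5.98 and Krt14 at 13.5 TPM, against 3.86 to 5.74 TPM elsewhere. Log2 fold changes are given below also without female 2 and male 1. Values of single libraries are in the order of replicates 1 to 3 of each sex.

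Levels are compared between genes as TPM, which corrects for transcript length, and as means of the 6 libraries. Scd2, a stearoyl-CoA desaturase that puts a double bond into saturated fatty acids, stood highest at 539 TPM, above 98.7% of the genes that passed the filter, and its lowest library (384 TPM) exceeded the highest of the next gene. Hmgcs1, the cytosolic HMG-CoA synthase, followed at 210.0 TPM, then Scd1 at 161 TPM and Ugt8a at 150.4 TPM. At the other end stood Mvd, the mevalonate diphosphate decarboxylase, at 12.00 TPM and Thrsp, a lipogenic regulator, at 3.97 TPM. Of the 33 pairs of neighbours in this order, 30 overlapped in their ranges over libraries, and 3 did not: Scd2 and Hmgcs1, Mvk and Lss, and Mvd and Thrsp.

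**Figure D1:**
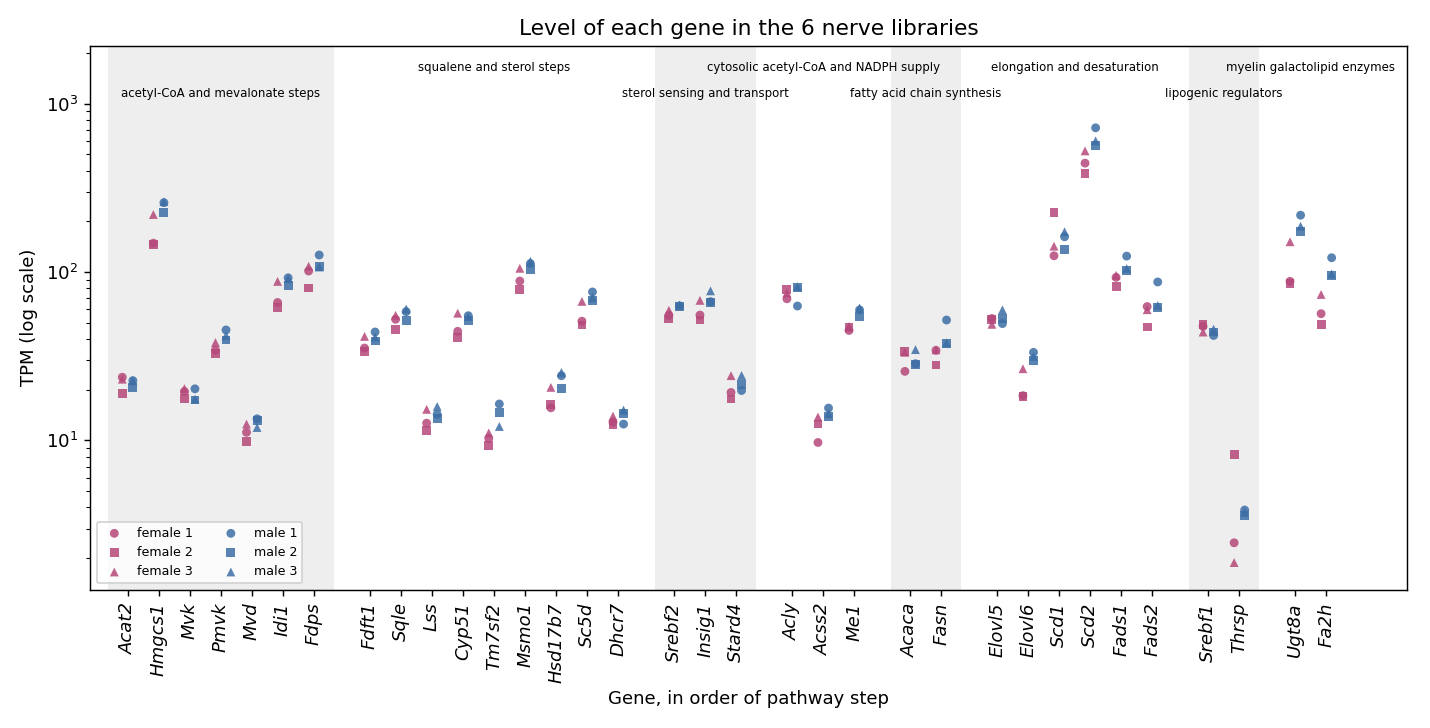
Level of each of the 34 genes as TPM on a log axis, grouped by pathway step, with 1 point per library (3 female, 3 male). Scd2 stands above the rest at 384 to 718 TPM and Thrsp lies lowest at 1.88 to 8.30 TPM.

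Along the cholesterol pathway the levels did not follow the order of the steps. Acat2, which joins 2 acetyl-CoA molecules, was at 21.95 TPM, and Hmgcs1, the enzyme of the next step, at 210.0 TPM. The kinases Mvk and Pmvk, which phosphorylate mevalonate, were at 18.8 TPM and 38.7 TPM, and the decarboxylase Mvd at 12.00 TPM. Idi1, the isopentenyl diphosphate isomerase, and Fdps, which makes farnesyl diphosphate, were above these at 80.4 TPM and 105 TPM. In the sterol steps, Msmo1, which removes methyl groups from the sterol ring, was highest at 101 TPM, and Tm7sf2, a sterol reductase, lowest at 12.3 TPM. Sc5d, the sterol desaturase, was at 63.4 TPM, Sqle, the squalene epoxidase, at 53.98 TPM, and Cyp51, the lanosterol demethylase, at 50.5 TPM. Fdft1, which makes squalene, was at 39.1 TPM, Hsd17b7, a sterol ketoreductase, at 20.4 TPM, Lss, which closes the sterol rings, at 13.9 TPM, and Dhcr7, a reductase of the last steps before cholesterol, at 13.5 TPM. Of the sensing and transport genes, Insig1, which holds SREBP in the endoplasmic reticulum, was at 64.2 TPM, Srebf2 at 59.3 TPM and Stard4, a sterol carrier, at 21.1 TPM.

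Among the fatty acid genes, Scd2 and Scd1 were followed by Fads1, and Fads2 stood below Acly; Fads1 and Fads2, the desaturases of polyunsaturated fatty acids, were at 100.2 TPM and 63.5 TPM. Acly, which splits citrate to give cytosolic acetyl-CoA, was at 74.8 TPM, Me1, the malic enzyme that supplies NADPH, at 52.5 TPM, and Acss2, which makes acetyl-CoA from acetate, at 13.3 TPM. Fasn, the fatty acid synthase, and Acaca, the acetyl-CoA carboxylase that feeds it, were at 37.4 TPM and 30.7 TPM. The elongases Elovl5 and Elovl6 were at 52.7 TPM and 26.3 TPM, and Srebf1 was at 45.4 TPM. Ugt8a, which adds galactose to ceramide, and Fa2h, which puts a hydroxyl group on the fatty acids of these lipids, were at 150.4 TPM and 82.1 TPM. Summed over the 19 cholesterol members, levels were 857, 788 and 1048 TPM in the 3 females and 1141, 1033 and 1130 TPM in the 3 males. The 13 fatty acid members summed to 1029, 1067 and 1148 TPM in females and 1439, 1210.1 and 1313 TPM in males, without overlap of the sexes.

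The stated aim of the study was to compare females with males, and no member passed that test at an adjusted p under 0.05. Of 19129 genes tested by edgeR's quasi-likelihood test, 21 did (0.110%), 3 higher (0.0157%) and 18 lower (0.0941%) in females; the smallest adjusted p of a member was 0.159. Log2 fold changes, female over male, were below 0 for 30 of the 34 members, against 46.4% of all genes, with a median of -0.26 over the members and 0.02 over all genes. In single libraries, as CPM scaled by the trimmed mean of M-values (TMM), every female lay below every male for 16 of 34 members, against 11.5% of all genes, and the reverse held for 0 of 34, against 9.65%. At an unadjusted p under 0.05 there were 18 members, all with negative values, against 8.74% of all genes in that direction. That count was 7 without female 1, 9 without female 2 and 22 without female 3. It was 7 without male 1, 15 without male 2, 13 without male 3, and 7 without female 2 and male 1 together. Both counts without female 2 include Thrsp (log2 fold changes -0.78 and -0.71), which was not among the 18. Fewer libraries also lower the power of the test, and the share of all genes is not given for these fits. DESeq2, with 4.77% of 17587 genes called, called 7 members lower in females (Hmgcs1, Tm7sf2, Hsd17b7, Me1, Elovl6, Ugt8a and Fa2h), against 3.54% of those genes called lower, and 0 higher, against 1.23%. In these bulk libraries, fewer cells of a type and less RNA per cell cannot be told apart. The 12 markers of myelinating Schwann cells had values of the same sign, with all 12 below 0 at a median of -0.76, none past the threshold, and the 8 markers of the Schwann cell lineage were below 0 as well, at a median of -0.51. Fibroblast markers were below 0 for 5 of 6, at a median of -0.49, with sums of 3168 to 4077 TPM in females and 4417 to 5676 TPM in males. The 9 adipocyte and 10 skeletal muscle markers that passed the filter were all above 0 and overlapped between the sexes. The part of these cell types in the values of the members was not tested.

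**Figure D2:**
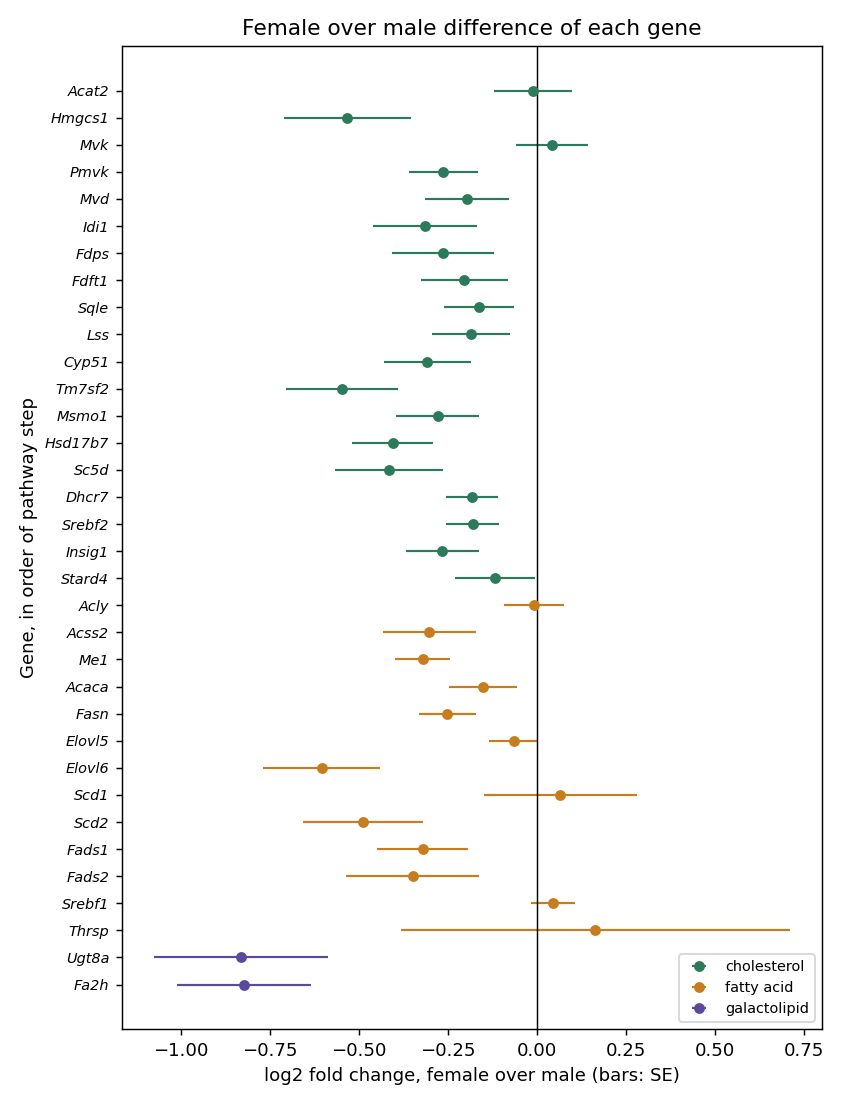
Log2 fold change of each member (points), female over male, from edgeR, with bars of 1 standard error, in order of pathway step and coloured by gene group. The values run from -0.83 for Ugt8a to 0.16 for Thrsp, and none passed an adjusted p of 0.05.

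The galactolipid enzymes had the most negative values. Ugt8a was at 148, 128 and 232 CPM in the 3 females, against 368, 271 and 267 CPM in the 3 males. Fa2h was at 83.9, 71.5 and 108 CPM in the 3 females, against 190.3, 139.6 and 137 CPM in the 3 males. In both genes all females lay below all males, female 2 was lowest and male 1 highest. Ugt8a had a log2 fold change of -0.83, SE 0.24, edgeR adjusted p = 0.222, and Fa2h a log2 fold change of -0.82, SE 0.19, edgeR adjusted p = 0.159. Without female 3, the highest female in both, edgeR called Ugt8a and Elovl6 (log2 fold changes -1.13 and -0.81), when 0.966% of genes were called lower. Without female 2 and male 1, neither Ugt8a nor Fa2h passed (log2 fold changes -0.50 and -0.52).

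In the mevalonate steps, 6 of 7 members were below 0, against 46.4% of all genes, and Hmgcs1 had the most negative value. Hmgcs1 was at 254, 228 and 359.5 CPM in the 3 females, against 459, 365 and 393 CPM in the 3 males. The sexes did not overlap, though female 3 lay just under the lowest male (log2 fold change -0.53, SE 0.18, edgeR adjusted p = 0.256). Pmvk also had every female below every male, at 26.9 to 31.7 CPM in females and 32.3 to 38.8 CPM in males, with a log2 fold change of -0.26 (SE 0.10, edgeR adjusted p = 0.282). Idi1, Fdps and Mvd overlapped between the sexes, with log2 fold changes of -0.32, -0.26 and -0.20. Acat2 and Mvk lay near 0, at -0.01 and 0.04. Without female 2 and male 1 the values were -0.31 for Hmgcs1, -0.13 for Pmvk, -0.10 for Idi1, -0.02 for Fdps, -0.05 for Mvd, 0.16 for Acat2 and 0.18 for Mvk. Single libraries weighed on them too: leaving out female 2 alone put Idi1 at -0.19 and Fdps at -0.15, and leaving out male 1 alone put Fdps at -0.14, Mvd at -0.13 and Pmvk at -0.17. Without female 3, values lay further below 0, with Hmgcs1 at -0.75, Idi1 at -0.46, Fdps at -0.36, Pmvk at -0.33 and Mvd at -0.29.

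All 9 members of the squalene and sterol steps were below 0, against 46.4% of all genes. Of these 9, 5 did not overlap between the sexes as CPM, with every female below every male, against 11.5% of all genes. Tm7sf2 was at 7.66, 6.32 and 8.14 CPM in the 3 females, against 12.99, 10.2 and 9.12 CPM in the 3 males, with a log2 fold change of -0.55, SE 0.16, edgeR adjusted p = 0.196. Hsd17b7 was at 34.9, 32.95 and 41.3 CPM in the 3 females, against 54.1, 42.7 and 47.9 CPM in the 3 males, with a log2 fold change of -0.41, SE 0.11, edgeR adjusted p = 0.192. Both were lowest in female 2 and highest in male 1, and the gap between the nearest female and male was small in each. Sc5d, Msmo1 and Dhcr7 were also without overlap, with log2 fold changes of -0.42, -0.28 and -0.18. As TPM, Hsd17b7, Msmo1 and Dhcr7 did overlap. Female 3 then lay above male 2 for Hsd17b7 (20.66 against 20.23 TPM) and Msmo1 (105.2 against 103.1 TPM). For Dhcr7 it lay above male 1 (13.9 against 12.5 TPM). Cyp51, Fdft1, Lss and Sqle overlapped, with values of -0.31, -0.20, -0.19 and -0.16. With an offset for transcript length, Dhcr7 was at -0.11 and Cyp51 at -0.19. In the genes that sense sterol, Srebf2 was at 160.2, 156 and 172 CPM in the 3 females, against 194, 182 and 178 CPM in the 3 males, a narrow range with a log2 fold change of -0.18, SE 0.07, edgeR adjusted p = 0.317. Insig1 was at 75.4, 66.1 and 86.9 CPM in the 3 females, against 93.9, 87.3 and 93.7 CPM in the 3 males, with a log2 fold change of -0.27, SE 0.10, edgeR adjusted p = 0.296. Neither overlapped between the sexes as CPM, whereas Stard4 did, at 42.8 to 59.3 CPM in females and 54.1 to 57.2 CPM in males. As TPM, Insig1 overlapped too, with female 3 at 67.9 TPM and male 2 at 66.3 TPM. With female 2 and male 1 left out, the sterol step values were -0.29 for Tm7sf2, -0.25 for Hsd17b7, -0.18 for Sc5d, -0.15 for Dhcr7, -0.13 for Cyp51, -0.11 for Msmo1, -0.07 for Lss, -0.03 for Sqle and -0.02 for Fdft1. Those of Insig1, Srebf2 and Stard4 were -0.16, -0.11 and -0.02. Leaving out female 2 alone put Cyp51 at -0.20, Msmo1 at -0.17, Lss at -0.11, Sqle at -0.09 and Fdft1 at -0.14, and leaving out male 1 alone put Fdft1 at -0.09 and Sqle at -0.10. Values lay further below 0 without female 3, with Cyp51 at -0.43, Msmo1 at -0.39, Lss at -0.31, Fdft1 at -0.31 and Sqle at -0.23. Over the 19 cholesterol members the median log2 fold change was -0.26, and it was -0.11 without female 2 and male 1.

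The log2 fold changes of the fatty acid members spread from -0.61 to 0.16. Me1 had the smallest p of all members, at 81.7, 81.6 and 84.2 CPM in the 3 females, against 113, 96.1 and 100.5 CPM in the 3 males (log2 fold change -0.32, SE 0.08, edgeR adjusted p = 0.159). Its 3 female libraries lay within 3 CPM of each other and below every male. Elovl6, which lengthens palmitate, was at 61.1, 57.1 and 85.5 CPM in the 3 females, against 117, 95.3 and 97.3 CPM in the 3 males (log2 fold change -0.61, SE 0.16, edgeR adjusted p = 0.191). Scd2 was at 1504, 1277 and 1753 CPM in the 3 females, against 2576, 1891 and 1895 CPM in the 3 males, again without overlap (log2 fold change -0.49, SE 0.17, edgeR adjusted p = 0.257). Fasn was at 171, 179.9 and 183 CPM in the 3 females, against 226, 195 and 215 CPM in the 3 males (log2 fold change -0.25, SE 0.08, edgeR adjusted p = 0.228). Fads1 did not overlap either, at 169.7 to 198 CPM in females and 210.2 to 280.4 CPM in males, with a log2 fold change of -0.32. Fads2, Acss2 and Acaca overlapped, with values of -0.35, -0.30 and -0.15, and that of Acaca was 0.01 with an offset for transcript length. Values of several members were closer to 0 without male 1: Fads2 was at -0.12, Fads1 at -0.17 and Scd2 at -0.32, and Acss2 was at -0.17 and Acaca at -0.09. Without female 1, Acaca was at -0.08. Values lay further below 0 without female 3, with Scd2 at -0.61, Fads2 at -0.40, Acss2 at -0.38, Fads1 at -0.36 and Acaca at -0.19. Without female 2 and male 1 the values were -0.39 for Elovl6, -0.24 for Me1, -0.22 for Scd2, -0.21 for Fasn, -0.20 for Acss2, -0.13 for Acaca, -0.10 for Fads1 and -0.01 for Fads2.

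The other fatty acid members had smaller or unsteady values. Scd1 was at 351, 611 and 391 CPM in the 3 females, against 481, 373 and 439 CPM in the 3 males, with female 2 above all other libraries. Thrsp was at 2.16, 7.16 and 1.65 CPM in the 3 females, against 3.54, 3.09 and 3.13 CPM in the 3 males, and here too female 2 stood apart. The log2 fold changes were 0.07 for Scd1 and 0.16 for Thrsp, and without female 2 and male 1 they were -0.13 and -0.71, none past the threshold. Srebf1 was at 90.6, 95.8 and 87.7 CPM in the 3 females, against 89.1, 88.5 and 88.1 CPM in the 3 males, with a log2 fold change of 0.04, SE 0.06, edgeR adjusted p = 0.787. Acly and Elovl5 overlapped between the sexes, with log2 fold changes of -0.01 and -0.07. Without female 2 and male 1, Srebf1, Acly and Elovl5 were at 0.01, -0.11 and -0.07. Over the 13 fatty acid members the median was -0.25, and -0.13 without female 2 and male 1.

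None of the other genes listed for these pathways passed the adjusted threshold in edgeR's test. Of 10 further cholesterol enzymes that passed the filter, 7 were below 0 at a median of -0.03. Of 17 genes of SREBP control and sterol uptake, 9 were below 0 at a median of -0.04, with Mid1ip1, a partner of acetyl-CoA carboxylase, at -0.23 and Lpin1, a phosphatidate phosphatase, at -0.41. Of 20 further fatty acid genes, 11 were below 0 at a median of -0.03, with Slc25a1, the mitochondrial citrate carrier, at -0.44 and Tecr, the last enzyme of the elongation cycle, at -0.38. Of 15 further sphingolipid genes, 11 were below 0 at a median of -0.07, with Sptlc2, a subunit of serine palmitoyltransferase, at -0.26 and Gal3st1, which makes sulfatide from galactosylceramide, at -0.57. Every female lay below every male, as CPM, for 4 cholesterol, 3 control, 7 fatty acid and 5 sphingolipid genes, against 11.5% of all genes. The reverse held for 0, 1, 0 and 1, against 9.65%. At an unadjusted edgeR p under 0.05, 4, 2, 6 and 4 were lower, against 8.74% of all genes, and 0, 0, 0 and 1 higher. Median deviations of these lists did not overlap between the sexes, females being lower, except in the control genes. Of 17 genes of cholesterol transport, efflux and esterification, 5 were below 0, against 46.4% of all genes, at a median of 0.11. Their median deviations overlapped between the sexes, at 0.02, 0.31 and -0.15 on the log2 scale in the 3 females and -0.09, 0.003 and -0.02 in the 3 males, with female 2 apart, and their summed level averaged 6581 TPM in females and 7208 TPM in males. Lipa, the lysosomal lipase that frees cholesterol from its esters, was at 163, 210.2 and 152 CPM in the 3 females, against 103, 145 and 114 CPM in the 3 males (log2 fold change 0.54, SE 0.16, edgeR adjusted p = 0.226). Soat1, which esterifies cholesterol, was at 0.35 (SE 0.12, edgeR adjusted p = 0.245). The 6 macrophage markers were above 0 as well, at a median of 0.27, and their part was not tested.

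Over the 6 libraries the cholesterol members varied together. Female 2 was the lowest library for 18 of the 19 (20.9% of all genes had their lowest value there) and male 1 the highest for 17 of the 19 (24.8% of all genes). Median deviations of the 19 from their means were -0.14, -0.31 and 0.07 on the log2 scale in the 3 females and 0.26, 0.05 and 0.09 in the 3 males. The myelinating Schwann cell markers gave -0.50, -0.62 and -0.05 in females and 0.68, 0.28 and 0.20 in males, with the same lowest and highest library and a wider range. The cholesterol values of the sexes overlapped, since female 3 lay above male 2. As a description over pairs of genes that share the same 6 libraries and their depth, the median Pearson r among the 171 cholesterol pairs was 0.88, and 0.86 on deviations from the sex means. Over all pairs of genes it was near 0, with 4.57% above 0.8, compared with 68.4% of the cholesterol pairs. The 19 genes had a median r of 0.91 with the myelin markers, 0.93 with Ugt8a and Fa2h, -0.53 with the adipocyte markers and -0.20 with the skeletal muscle markers. Acat2 and Mvk were the loosest of the 19, with median r of 0.56 and 0.40 with the others. On deviations from the sex means they were at 0.77 and 0.83, and Dhcr7 and Stard4 were the loosest, at 0.56 and 0.67.

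**Figure D3:**
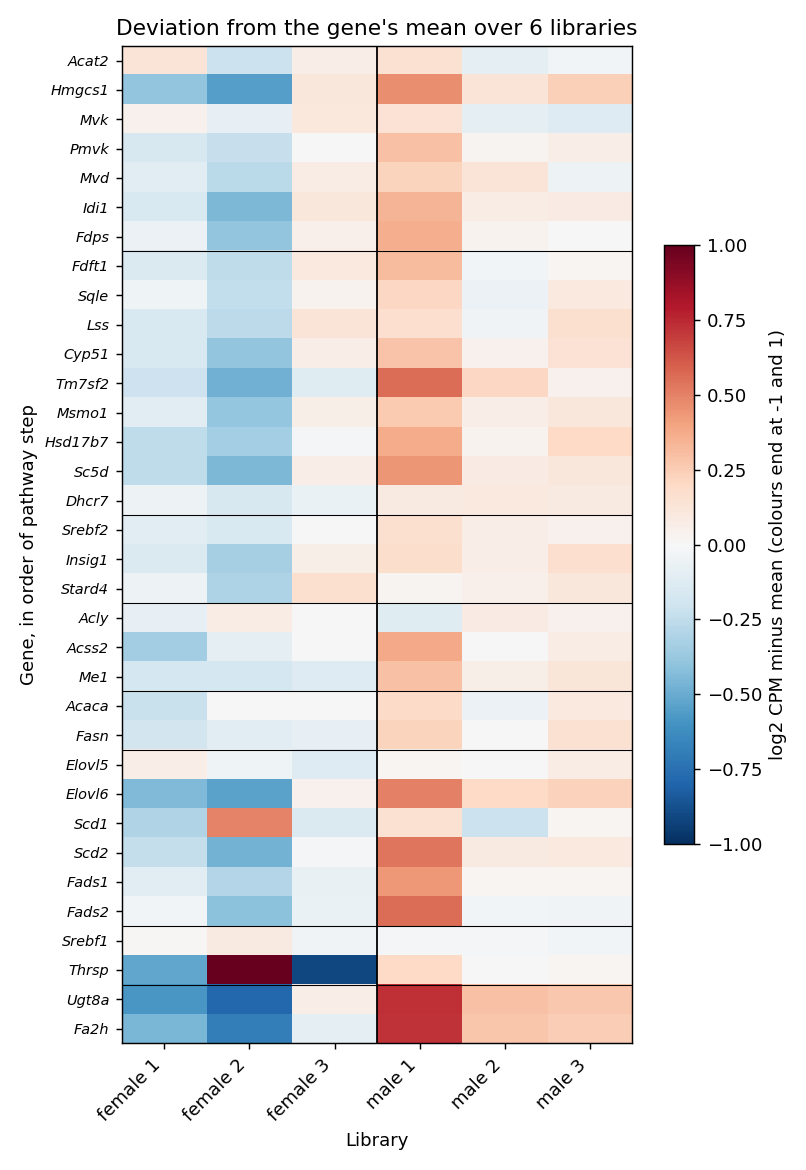
Colour map of the deviation of each member (rows, by pathway step) from its own mean in each of the 6 libraries (columns), on the log2 scale of TMM-scaled CPM, with red above and blue below the mean. Female 2 is lowest in 25 of the 34 genes and male 1 highest in 27.

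The 13 fatty acid members split, with a median r of 0.25 among their 78 pairs. Scd2, Elovl6, Fads1, Fads2 and Me1 followed the cholesterol members, with median r of 0.95, 0.92, 0.88, 0.84 and 0.80. On deviations from the sex means these were 0.90, 0.89, 0.80, 0.79 and 0.64. Fasn, Acss2 and Acaca were at 0.77, 0.71 and 0.56, and at 0.48, 0.47 and 0.28 on deviations from the sex means. Elovl5 was at 0.16, and at -0.33 on those deviations, and Scd1, Acly, Thrsp and Srebf1 were negative, at -0.31, -0.39, -0.47 and -0.77 (-0.34, -0.63, -0.68 and -0.69 on those deviations). Scd1 and Thrsp instead had median r of 0.86 and 0.78 with the adipocyte markers, and Srebf1 of 0.73. Acly, Acaca and Acss2 were at 0.48, 0.33 and 0.11 with these markers. Fasn, Elovl5, Me1 and Elovl6 were below 0, at -0.11, -0.19, -0.29 and -0.39. So were Fads1, Scd2 and Fads2, at -0.40, -0.43 and -0.52. The adipocyte sum was 1274 TPM in female 2, against 382 to 788 TPM elsewhere. Srebf1 varied little between libraries, from 87.7 to 95.8 CPM in females and from 88.1 to 89.1 CPM in males.

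For 16 pairs, fixed with earlier results known, an exact two-sided permutation test over all orders of the 6 libraries was made, whose smallest p is 0.00139. By Pearson r, 11 of the 16 passed an adjusted p of 0.05, and by Spearman rho 6. The pairs were chosen with these data known, and the orders mix the sexes. The p values therefore describe the pairs and are not an independent test of them. For Fa2h and Mbp, the myelin basic protein gene, Pearson r was 0.9965 (exact permutation p = 0.00139, adjusted 0.0111) and Spearman rho 1 (exact permutation p = 0.00278, adjusted 0.0222), and r was 0.9998 without female 2 and male 1 and 0.99 on deviations from the sex means. For Hmgcs1 and Mbp, Pearson r was 0.97 (exact permutation p = 0.00278, adjusted 0.0111) and Spearman rho 0.94 (exact permutation p = 0.0167, adjusted 0.0444), and r was 0.88 without female 2 and female 1 and 0.96 on deviations from the sex means. For both genes the relation to the myelin gene was nearly as close with the difference between the sexes taken out. For Srebf2 and Hmgcs1, Pearson r was 0.97 (exact permutation p = 0.00417, adjusted 0.0133) and Spearman rho 0.94 (exact permutation p = 0.0167, adjusted 0.0444), and r was 0.93 without female 2 and male 1 and 0.93 on deviations from the sex means. For Scd2 and Mbp, Pearson r was 0.96 (exact permutation p = 0.00278, adjusted 0.0111) and Spearman rho 0.94 (exact permutation p = 0.0167, adjusted 0.0444), and r was 0.99 without female 2 and male 1 and 0.95 on deviations from the sex means. For Scd1 and Adipoq, the adipocyte hormone adiponectin, Pearson r was 0.86 (exact permutation p = 0.0292, adjusted 0.0465) and Spearman rho 0.83 (exact permutation p = 0.0583, adjusted 0.0848), and r was 0.32 without female 2 and female 1 and 0.86 on deviations from the sex means. This relation rests on female 2 and female 1, the libraries with the highest and lowest Scd1. For Scd1 and Scd2, Pearson r was -0.19 (exact permutation p = 0.706, adjusted 0.706) and Spearman rho 0.09 (exact permutation p = 0.919, adjusted 0.919), and r was 0.82 without female 2 and female 1 and -0.24 on deviations from the sex means. The negative value thus rests on those libraries too.

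**Figure D4:**
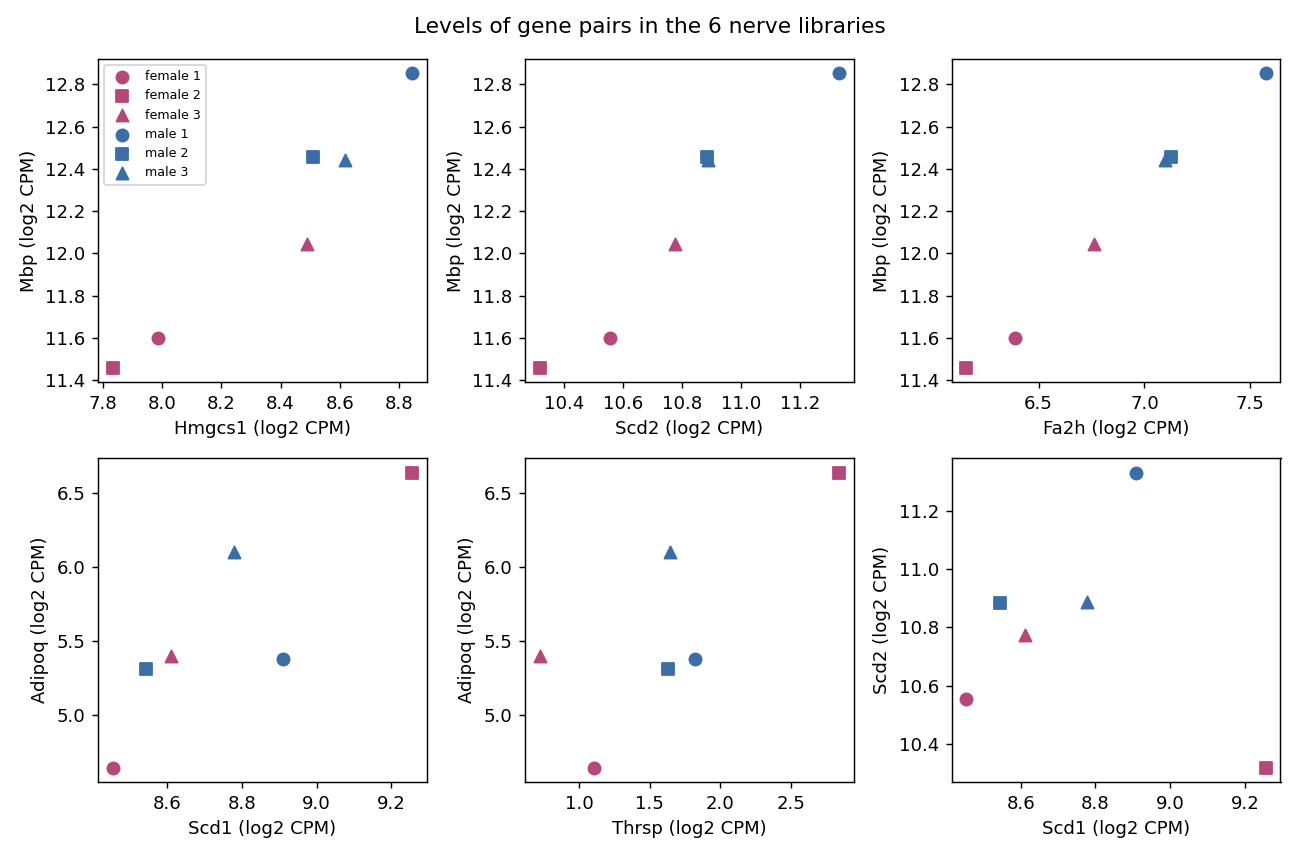
Log2 TMM-scaled CPM of pairs of genes in each of the 6 libraries, with 1 point per library (3 female, 3 male). Fa2h and Mbp run along a line (r of 0.997), while Scd1 and Adipoq have female 2 far from the other 5 libraries.

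Within the synthesis pathways the relations were mixed. For Insig1 and Sqle, Pearson r was 0.90 (exact permutation p = 0.00972, adjusted 0.0259) and Spearman rho 0.83 (exact permutation p = 0.0583, adjusted 0.0848), and r was 0.84 without female 2 and female 1 and 0.86 on deviations from the sex means. For Ugt8a and Fa2h, Pearson r was 0.99 (exact permutation p = 0.00139, adjusted 0.0111) and Spearman rho 1 (exact permutation p = 0.00278, adjusted 0.0222), and r was 0.99 without female 2 and female 1 and 0.97 on deviations from the sex means. For Srebf1 and Fasn, a textbook target of SREBP-1, Pearson r was -0.45 (exact permutation p = 0.408, adjusted 0.467) and Spearman rho -0.43 (exact permutation p = 0.419, adjusted 0.479), and r was 0.71 without female 2 and female 1 and -0.01 on deviations from the sex means. For Acaca and Fasn, Pearson r was 0.88 (exact permutation p = 0.0167, adjusted 0.0333) and Spearman rho 0.77 (exact permutation p = 0.103, adjusted 0.137), and r was 0.66 without female 1 and male 1 and 0.93 on deviations from the sex means. On the scale log2(TPM + 1) the Pearson r of Acaca and Fasn was -0.33, so its sign depends on the scale. For Thrsp and Scd1, Pearson r was 0.87 (exact permutation p = 0.0292, adjusted 0.0465) and Spearman rho 0.83 (exact permutation p = 0.0583, adjusted 0.0848), and r was 0.83 without female 2 and female 3 and 0.89 on deviations from the sex means. The other 5 pairs had Pearson r of 0.89 for Hmgcs1 and Sqle, 0.86 for Hmgcs1 and Fasn, 0.85 for Sqle and Elovl6, 0.76 for Thrsp and Adipoq and 0.19 for Fasn and Adipoq. By Pearson r, Hmgcs1 with Sqle (adjusted exact permutation p = 0.0333) and Sqle with Elovl6 (0.0465) passed, and by Spearman rho Hmgcs1 with Fasn did (rho 0.94, adjusted exact permutation p = 0.0444). The r of Sqle and Elovl6 was 0.46 without female 2 and male 1.

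The main transcript, the one with the largest share of the gene's TPM, was protein coding in all 34 genes. For 19 genes 1 transcript held at least 90% of the gene's TPM, among them Scd2, Me1, Ugt8a and Fads2. In 7 genes the main transcript held under 60%. Sc5d was split between Sc5d-202, at 53.6% of TPM, and the longer Sc5d-201, at 45.1%. Acly was split between Acly-203 and Acly-201, at 47.7% and 39.3%. In Lss, transcripts with a retained intron held 45.7%, close to the 46.1% of the coding Lss-201. Lss-204, the largest of them, held 21.1 to 24.1% in females and 26.7 to 31.3% in males.

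Srebf1 is of interest here because its 2 main coding transcripts start the protein differently. The first 30 coding bases, read from GENCODE M21 on chromosome 11, minus strand, are given for both, with the start codon in the same reading.
Srebf1-201: atggacgagctggccttcggtgaggcggct
Srebf1-207: atggattgcacatttgaagacatgctccag
The first of these is the start of SREBP-1a, the form with the longer activation domain, and the second that of SREBP-1c, the main form in liver and fat. Srebf1-201 was at 23.4, 25.7 and 22.7 TPM in the 3 females and 22.4, 23.7 and 25.3 TPM in the 3 males. Srebf1-207 was at 5.98, 6.36 and 6.03 TPM in females and 4.68, 6.02 and 4.38 TPM in males. The SREBP-1a transcript was thus above the SREBP-1c transcript in every library, with 52.6% against 12.3% of the gene's TPM and 76.7% against 13.7% of its reads. The remaining TPM lay mostly on short transcripts that took few reads.

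Salmon assigns reads to overlapping transcripts by an estimate, and short transcripts can take a large share of TPM on few reads. Acaca-206, of 431 bases, held 17.6% of the gene's TPM with 0.607% of its reads. Fasn-202 and Fasn-203, of 762 and 976 bases and with a retained intron, held 20.3% of TPM each in male 1. They had 356 and 494 of the gene's 16988 reads in that library, and about 1% each over all libraries. The relation of Fasn with Acaca, given above, differed in sign between TPM and counts.

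**Figure D5:**
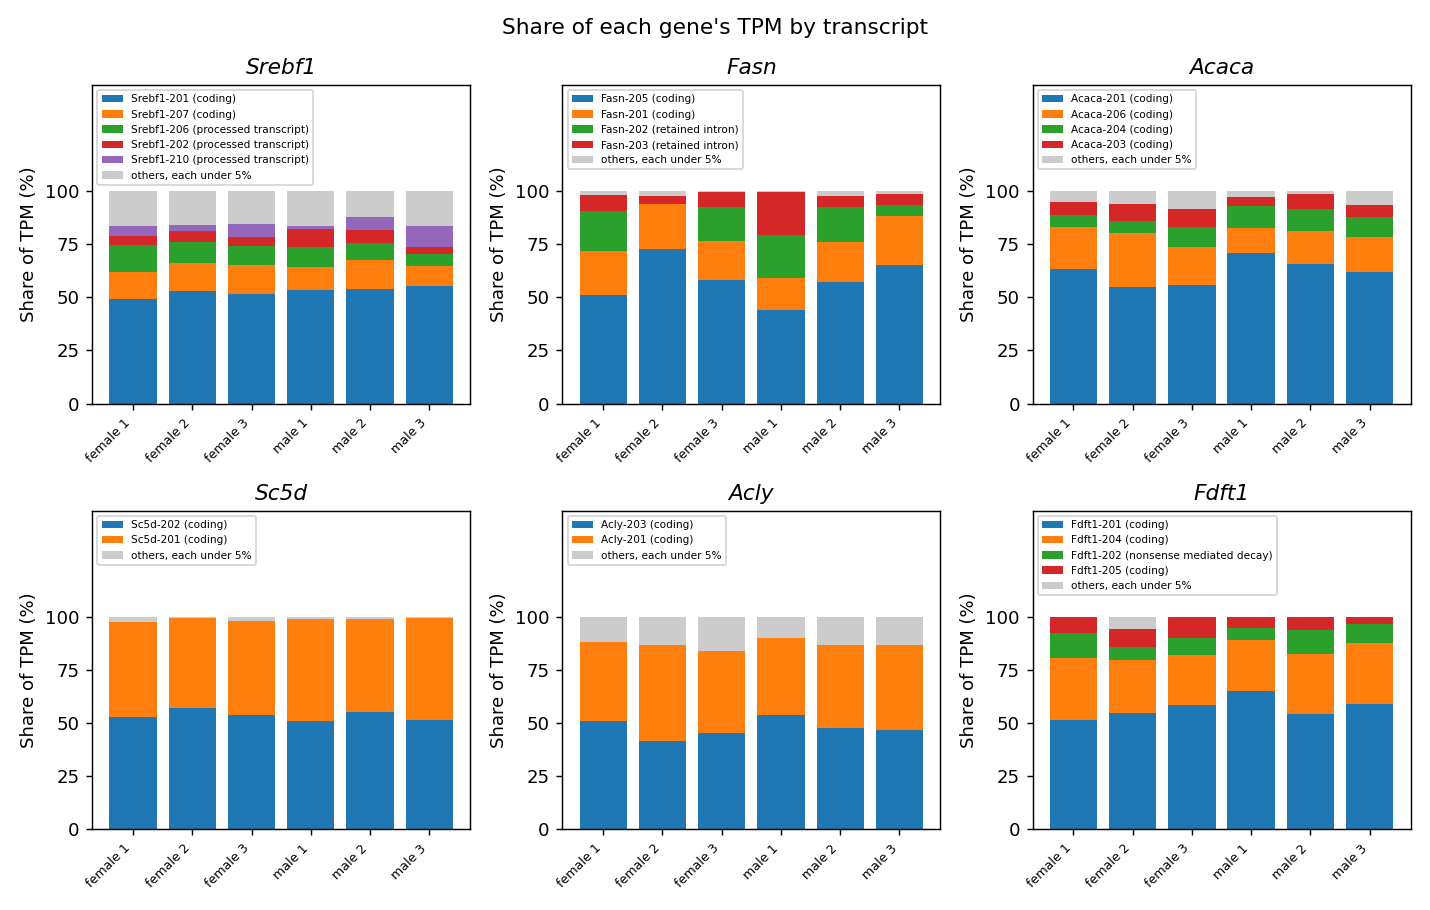
Share of the gene's TPM held by each transcript, in percent, as 1 stacked bar per library (3 female, 3 male), for 6 genes. Their main transcripts held 62.1% of TPM or less on average, although Acaca-201 took 94.7% of the Acaca reads. Srebf1-201 exceeds Srebf1-207 in every bar, with means of 51.2 and 13.1% in females and 54.1 and 11.5% in males, while the Fasn bars vary from library to library.

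No member passed the test of transcript use between the sexes by edgeR's diffSpliceDGE, in which 31 members were among 11566 genes tested and 62 genes (0.536%) were called. At an unadjusted p under 0.05 there were 0 members by this test and 4 by limma's diffSplice, which called 0 as well after adjustment. The share of all genes at that unadjusted p is not given here. As with Lss-204, the shares of the sexes did not overlap for Cyp51-204, a transcript with a retained intron, at 10 to 16.5% of Cyp51 TPM in females and 0 to 8.2% in males, on 1.14% of the gene's reads. Other member transcripts did not overlap either. The main transcript Dhcr7-202 held 70.5 to 79.6% in females and 81.8 to 90.1% in males. Among transcripts with a retained intron, Fa2h-204 held 4.14 to 4.75% in females and 3.14 to 3.66% in males. Dhcr7-205, also with a retained intron, held 1.35 to 2.92% in females and 3.92 to 5.34% in males. All these transcripts were chosen after their values were seen. The share of all transcripts without overlap is not given here. When single libraries were left out, Fads1 was called without female 3, Fdps without male 2 and Acaca without male 3. More genes were called over the whole table as well in those runs. They numbered 105 of 11842 without female 3, 146 of 11942 without male 2 and 151 of 11921 without male 3.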

How the data were processed

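RNA of 6 libraries, 3 female and 3 male by the labels, was sequenced after poly-A selection in paired reads of 100 nt, with tissue of 2 animals pooled per library and 500 ng of RNA as input, per the labels' protocols. Reads were handled with Trimmomatic 0.39, MultiQC 1.9 and Salmon 1.5.2, the tools in the submitters' processing notes. No source used here gives the build or annotation. For each of 140789 transcripts the deposited tables hold, per the file headers, a TPM value and an estimated count of reads assigned by Salmon, which the authors did not normalize. Salmon splits reads between similar sequences by an estimate, which makes values of near-identical genes, and of transcripts of 1 gene, uncertain.

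Counts and TPM were summed per gene (54309 genes by gene ID), and estimated counts were rounded to whole numbers. Genes were filtered with filterByExpr (19129 kept), scaled by TMM (factors 0.968 to 1.02) and tested with edgeR 4.0.16 in R 4.3.3, by its quasi-likelihood test with Benjamini-Hochberg adjustment over all genes kept; the common biological coefficient of variation was 0.183. Log2 fold changes are female over male, and CPM values are scaled by TMM. Transcript use was tested by diffSpliceDGE, which does not model the error of read assignment. Correlations used log2 CPM with a prior count of 1. Replicates were separate pools of animals. Library pairs differed by a chi-square of at least 26.3 per degree of freedom, so none was counted as a repeat. A count of 0 allows up to 3 reads, at most 0.0543 CPM, for counting error only. The scripts were tested on simulated data.

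The members and gene lists were chosen with earlier results of these data known. All 34 members are named; from the other lists, the 2 genes of smallest p per pathway list and marker genes are named, and others (Ucp1, Cidea, Krt5 and Krt14) were chosen after their values were seen. Results of a few genes under this rule are not reported here. The alternatives were DESeq2 1.42.0, limma 3.58.1 (voom, trend on log2(TPM + 1), diffSplice), other scalings and filters, an offset for transcript length, a block on replicate number, leaving out single libraries, and leaving out female 2 and male 1 together. Promoters came from RefSeq on GRCm38.p6 and coding starts from GENCODE M21.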

Additional observations from a re-analysis of the deposited data

How the results depend on the processing

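The medians of the cholesterol and of the fatty acid members stayed below 0 under every alternative run. They were -0.109 and -0.134 without female 2 and male 1, and with single libraries left out they ran from -0.333 to -0.157 and from -0.311 to -0.120; the cause was not tested. Members called lower numbered 7 by DESeq2 and 0 to 2 with single libraries left out, those 2 without female 3. Genes called higher and lower over the whole table numbered 44 and 147 without a filter, 216 and 623 by DESeq2, and 1 and 10 by limma on log2(TPM + 1). Genes called higher were 6 by limma-voom and 6 without female 2 and male 1. With single libraries left out, 0 to 17 genes were higher and 4 to 188 lower. Member genes with different transcript use numbered 0 to 1 with single libraries left out, when 105 to 185 genes were called over the whole table.

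Same-numbered female and male libraries did not deviate together (r of -0.09, -0.17 and 0.01, against -0.07 to 0.13 for different numbers). With 3 libraries per sex this cannot show whether same-numbered libraries had anything in common. The numbers are used here as names of samples. With the replicate number as a block, 0 genes were higher and 3 lower, no member was called, and Thrsp was at -0.15.

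Of the 16 gene pairs, 7 passed on log2(TPM + 1), 7 on log2(TPM + 0.1) and 5 without TMM scaling. Acaca and Fasn had r of -0.331 on both TPM scales, and Fasn and Adipoq -0.431. Signs of fold changes near 0 also turned. Acaca was at 0.0084 with a length offset and 0.013 by limma on log2(TPM + 1), and Thrsp at -0.18 by limma-voom and -0.062 by limma on log2(TPM + 1). Without female 2 and male 1, Acat2 was at 0.16, Scd1 at -0.13 and Thrsp at -0.71. With single libraries left out, Acly ran from -0.065 to 0.031, Acat2 from -0.079 to 0.080, Mvk from -0.0125 to 0.135, Scd1 from -0.22 to 0.22 and Thrsp from -0.78 to 0.51. Depth was lowest for Thrsp, at 126 to 493 reads per library, and the other members had at least 435.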
